A study of Mus musculus with 28 samples.

Results

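The secreted Wnt antagonists described here are 8 genes, *Sfrp1*, *Sfrp2*, *Sfrp4*, *Sfrp5*, *Frzb*, *Dkk1*, *Dkk2* and *Wif1*, taken by name from 22225 protein-coding genes of the mm9 annotation. All 8 were found in the annotation. They were examined in ChIP-seq of mouse embryonic stem cells (ESCs) differentiated towards mesoderm, in which Brg1, the ATPase of the BAF chromatin-remodeling complexes, was deleted. The question for these genes is where Brg1, acetylated H3K27 (H3K27ac, a mark of active promoters and enhancers), trimethylated H3K27 (H3K27me3, the mark of Polycomb repression) and Suz12 (a subunit of PRC2, the complex that deposits H3K27me3) lay, and whether the marked bases differed after deletion.

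The cells carried Brg1f/f; Actin-CreER, that is floxed *Brg1* alleles and a tamoxifen-inducible Cre driven by the widely active *Actin* promoter, in both conditions. Embryoid bodies were grown to day 2, then treated with 4-hydroxytamoxifen (4-OHT) at 200 nM, dissolved in tetrahydrofuran (THF), or with the solvent as control, and the reaggregated cells were collected at day 4 after 40 h with VEGF, activin A and BMP4. H3K27me3 was profiled in 3 control and 3 4-OHT replicates, H3K27ac and Suz12 in 2 and 2 each, and FLAG-tagged Brg1 in 3 replicates without 4-OHT. For FLAG the labels give the Brg1f/f; Actin-CreER genotype, whereas the study describes an ESC line with a FLAG-tagged *Brg1* allele and duplicate samples. The files hold no expression values, so neither the deletion of *Brg1* nor the RNA of any antagonist could be read from them.

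Secreted Wnt antagonists act outside the cell. The Sfrp proteins and Frzb (also known as Sfrp3) carry a cysteine-rich domain like that of the Frizzled receptors and bind Wnt ligands, and Wif1 binds Wnt ligands through a different domain. Dkk1 and Dkk2 instead bind the Lrp5 and Lrp6 co-receptors. Wnt signaling is required to form the primitive streak and mesoderm, and its inhibition at later stages favors cardiac specification.

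Each of the 17 lists gives enriched regions of 1 replicate as positions without a score or a read count, so the measure used here is the number of bases that the regions cover, within 5 kb on each side of the transcription start site (TSS) unless another window is named. The H3K27me3 lists held 8798 to 16959 regions covering 8.38 to 11.0 Mb in control and 6787 to 10394 regions covering 4.74 to 8.99 Mb with 4-OHT. For H3K27ac the total was 28.0 to 30.8 Mb in control and 26.1 to 28.5 Mb with 4-OHT, and for Suz12 it was 3.68 to 4.07 Mb and 3.58 to 4.77 Mb. Of the FLAG lists, 2 held 8021 and 8257 regions and the list of replicate 3 held 192. In control, 7 of 8 primitive streak and mesoderm markers had H3K27ac within 5 kb of the TSS in both lists, against 3 of 6 pluripotency markers, 2 of 5 endoderm markers, 1 of 4 cardiac markers and 0 of 5 neural markers. The share over all protein-coding genes was 47.8%, which the pluripotency and endoderm counts were near. In bulk cultures, a shorter list of regions from fewer marked cells and one from less mark per cell cannot be told apart, and read depth is unknown.

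The 8 antagonists differed in which of the active and the repressive mark was listed in their 5 kb windows. *Sfrp1*, *Sfrp5*, *Dkk2* and *Wif1* had H3K27me3 in all 3 control lists and no H3K27ac, as did 9.07% of all genes. *Dkk1* and *Sfrp4* had H3K27ac in both control lists without H3K27me3 in all 3 (45.0% of genes), *Frzb* had both marks (2.76%), and *Sfrp2* met neither criterion (43.2%). The H3K27me3 of *Frzb* was only 50 bp in control replicate 1, and no base of its window held the mark in all 3 control lists. Counted by mark, 5 of 8 antagonists had H3K27me3 in all control lists (11.8% of genes), 3 had H3K27ac in both (47.8%) and 2, *Sfrp1* and *Sfrp5*, had Suz12 in both (6.03%). Within their 5 kb windows H3K27me3 and H3K27ac did not share a base in either condition, except for 25 bp at *Dkk1* in control. The *Sfrp4* H3K27ac lay from -4097 to -3323 bp, with its edge 49 bp from the TSS of the neighboring gene *Epdr1* 3.27 kb upstream, and no list placed H3K27ac in the *Sfrp4* gene itself.

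**Figure D1:**
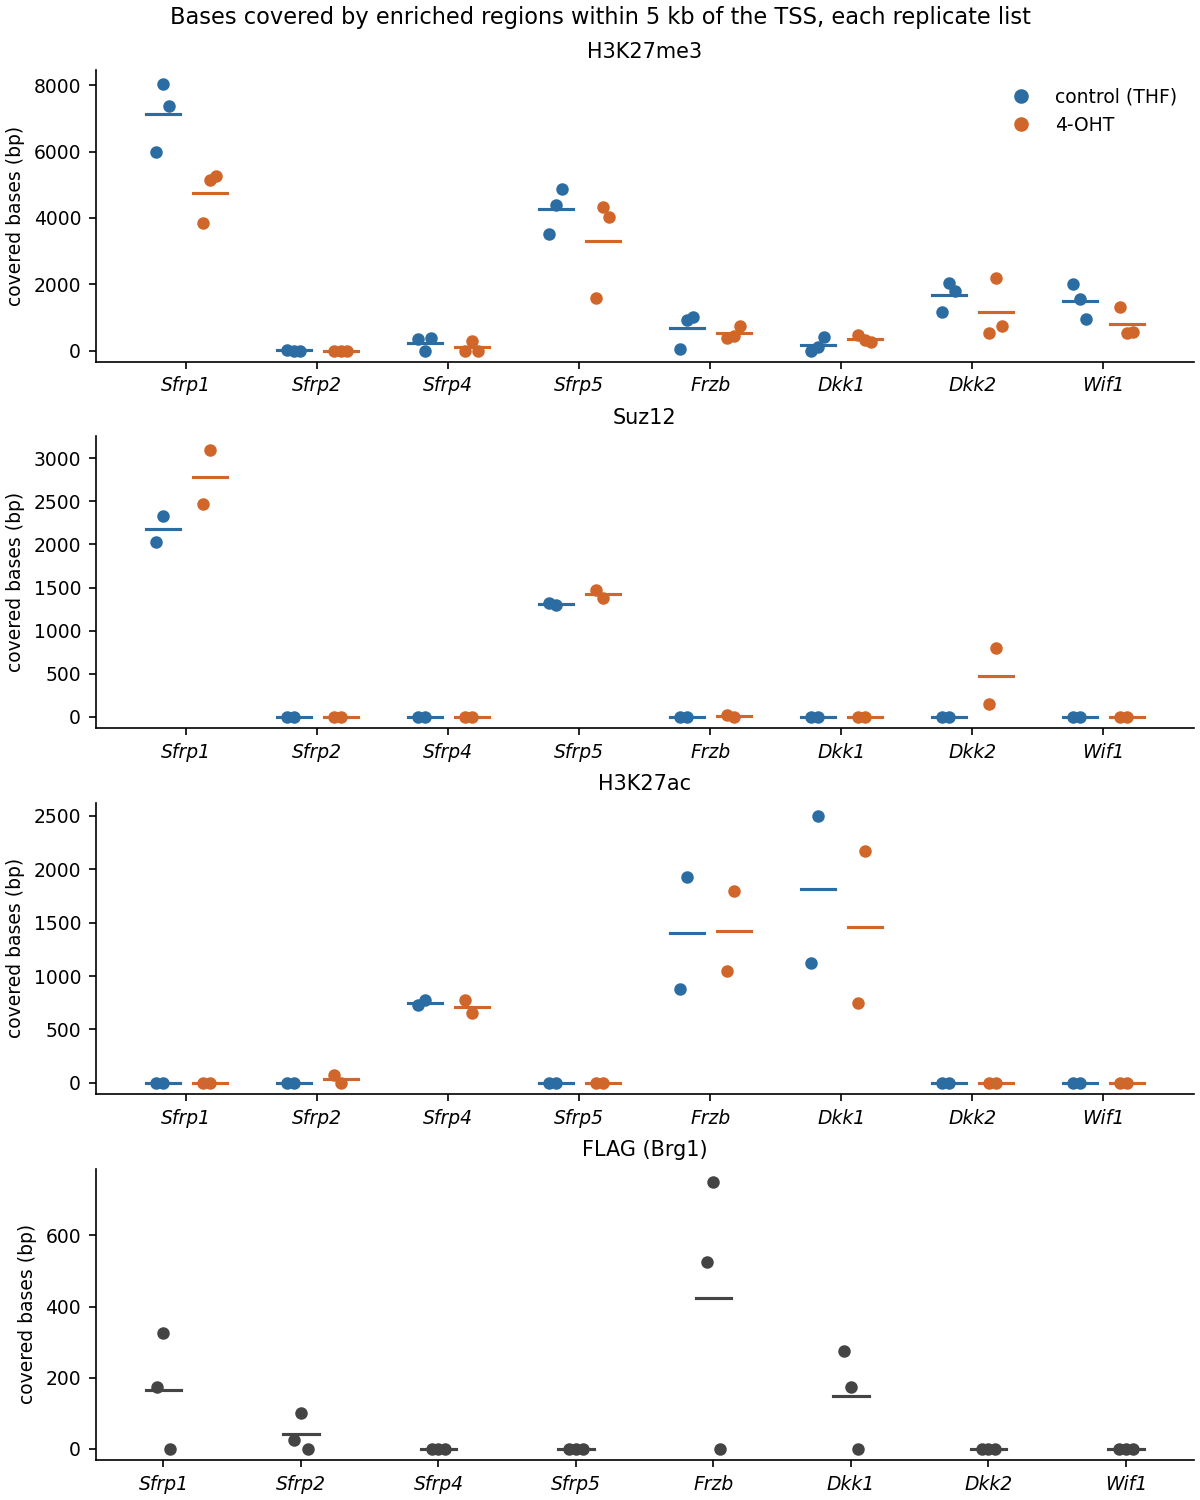
Bases covered by enriched regions within 5 kb of the TSS (y axis, bp) for each of the 8 antagonist genes (x axis), in panels for H3K27me3, Suz12, H3K27ac and FLAG. Points are single replicate lists (blue control, orange 4-OHT, grey FLAG) and bars are means; H3K27me3 and Suz12 are highest at *Sfrp1* and *Sfrp5*, whereas H3K27ac is highest at *Dkk1* and *Frzb* and FLAG at *Frzb*.

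*Sfrp1* (chr8:24521974-24560104, plus strand), a broad inhibitor of Wnt ligands, carried the most H3K27me3 of the 8 genes. Its window held 6000, 8050 and 7375 bp of the mark in control replicates 1, 2 and 3, a mean that stood at the 93.6 percentile of the 2629 genes with H3K27me3 in all control lists. With 4-OHT it held 3850, 5150 and 5275 bp. Every 4-OHT value lay below every control value, and the means were 7142 bp ± 1045 (SD, n = 3) and 4758 bp ± 789 (SD, n = 3), a ratio of 0.666. The difference (4-OHT minus control) was -2383 bp, with p = 0.100 in a two-sided exact permutation test, the smallest p that 3 against 3 allow. By limma over the 4182 windows with the mark in any list the adjusted p was 0.678 without a replicate block and 0.0859 (difference -2383 bp, SE 281 bp) with it.

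The call at *Sfrp1* depended on how the lists were compared. When each list was scaled to the same total covered length, the *Sfrp1* values were 6056, 6189 and 6221 bp in control and 6877, 4847 and 5856 bp with 4-OHT, and the conditions overlapped. Within 2.5 kb of the TSS they also overlapped, at 2702, 5001 and 4977 bp in control and 2402, 4552 and 4952 bp with 4-OHT, where 10.8% of 3828 genes were lower. Most of the difference as listed lay further out. From 2.5 to 5 kb on either side of the TSS, an interval chosen after the values were seen, *Sfrp1* held 3298, 3049 and 2398 bp in control and 1448, 598 and 323 bp with 4-OHT, a difference of -2125 bp, and 10.6% of 2360 genes with the mark there were lower. After scaling, these outer values were 3329, 2344 and 2023 bp against 2586, 563 and 359 bp and overlapped (5.04% of genes lower).

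Upstream of this domain, control lists held further H3K27me3 between 5 and 25 kb upstream of *Sfrp1*, 5925 bp in 15 regions, 1825 bp in 6 regions and 325 bp in 5 regions in replicates 1, 2 and 3. With 4-OHT this stretch held 225 bp in 1 region in replicate 1 and 0 in replicates 2 and 3. The control regions reached 21.7, 21.8 and 20.2 kb upstream, and replicate 1 held most of their bases. Over the whole 50 kb window the mark held 12225, 9875 and 7700 bp in control and 4075, 5150 and 5275 bp with 4-OHT, and *Sfrp1* was the 1 of 8 antagonists that was lower there, against 15.5% of 8493 genes. By pairs 4 of 8 (*Sfrp1*, *Sfrp5*, *Dkk1* and *Wif1*) were lower in that window, against 48.8%. In the gene body, H3K27me3 amounted to 2575, 4452 and 3927 bp in control and 1700, 2327 and 2452 bp with 4-OHT.

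**Figure D2:**
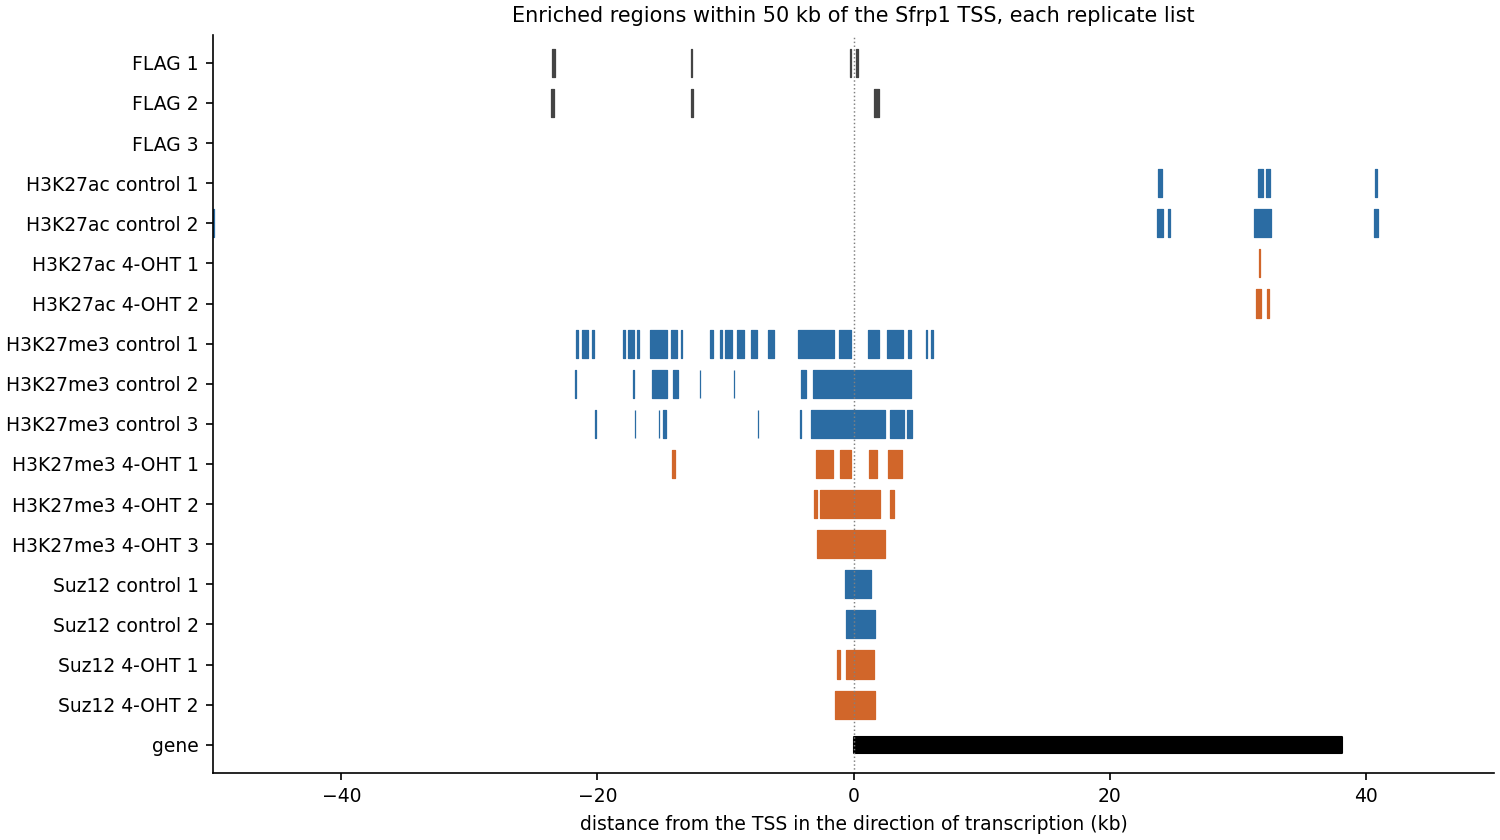
Enriched regions (boxes) of each of the 17 lists (rows) within 50 kb of the *Sfrp1* TSS, by distance from the TSS in kb (x axis, transcription to the right); grey is FLAG, blue control, orange 4-OHT and black the gene. H3K27me3 covers the TSS in replicates 2 and 3 of both conditions, leaves a gap over it in replicate 1, and reaches 21.8 kb upstream in control. Suz12 lies around the TSS, and H3K27ac lies in the 3' part of the gene.

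The *Sfrp1* promoter was also the richest in CpG of the 8. Within 500 bp of the TSS it had 103 CpGs, an observed-to-expected ratio of 1.04 that stood at the 99.1 percentile of all protein-coding genes. The ratio was 0.788 at *Sfrp2*, 0.682 at *Wif1*, 0.665 at *Sfrp5*, 0.605 at *Frzb*, 0.503 at *Sfrp4*, 0.479 at *Dkk2* and 0.445 at *Dkk1*. The median was 0.693 over genes with H3K27me3 in all control lists and 0.493 over the others. CpG content did not order the antagonists by H3K27me3, since *Sfrp2*, second in CpG ratio, had 25, 0 and 0 bp of the mark in control and *Dkk2*, with the second lowest ratio, had 1175, 2050 and 1800 bp. The 250 bp upstream of the TSS of *Sfrp1* (chr8:24521724-24521973, plus strand) and *Dkk1* (chr19:30624156-30624405, minus strand) are shown for the highest and the lowest ratio, 5' to 3' in the direction of transcription from the mm9 genome, with each CpG in capitals; they hold 22 and 3 CpGs.
Sfrp1 promoter: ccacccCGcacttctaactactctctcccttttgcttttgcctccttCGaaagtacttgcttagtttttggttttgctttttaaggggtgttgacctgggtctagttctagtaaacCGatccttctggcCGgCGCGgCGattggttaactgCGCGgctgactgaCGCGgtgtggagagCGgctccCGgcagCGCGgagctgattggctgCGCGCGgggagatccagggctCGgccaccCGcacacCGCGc
Dkk1 promoter: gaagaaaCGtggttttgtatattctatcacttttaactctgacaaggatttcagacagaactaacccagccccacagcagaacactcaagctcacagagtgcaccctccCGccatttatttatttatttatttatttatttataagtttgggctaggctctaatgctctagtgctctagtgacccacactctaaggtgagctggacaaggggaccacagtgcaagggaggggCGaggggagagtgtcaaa

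**Figure D3:**
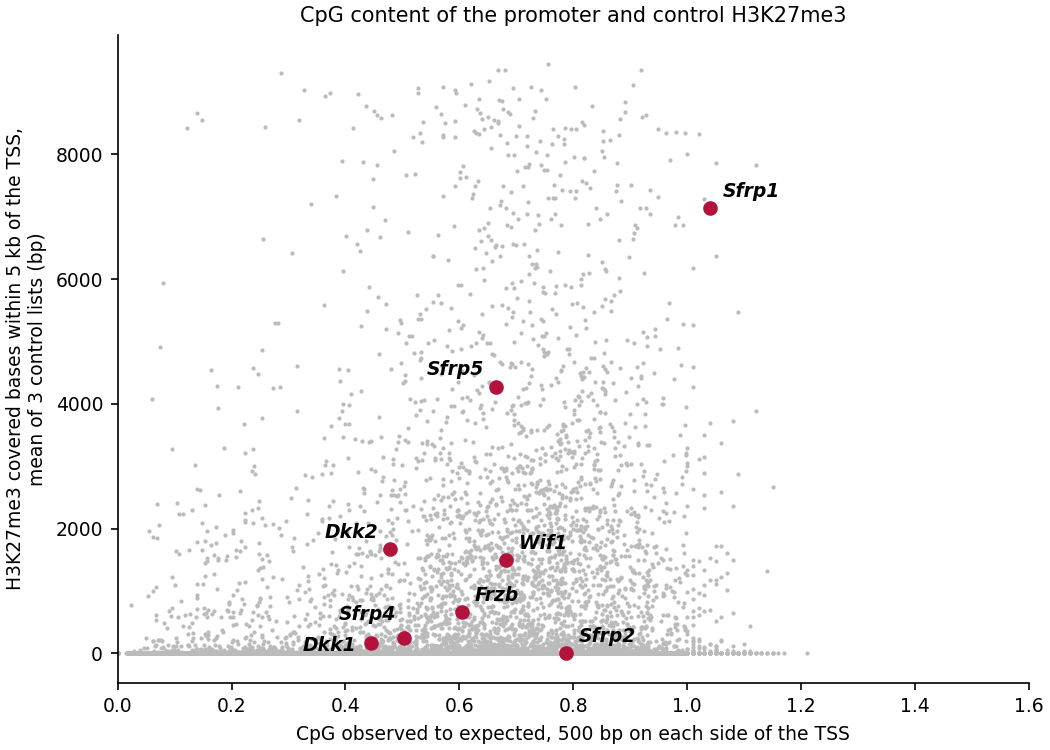
CpG observed-to-expected ratio within 500 bp of the TSS (x axis) against the mean H3K27me3 covered bases within 5 kb in the 3 control lists (y axis, bp) for all protein-coding genes (grey) and the 8 antagonists (red). *Sfrp1* lies at a ratio of 1.04 and 7142 bp, whereas *Sfrp2* at 0.788 lies near 0 bp.

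*Sfrp5* (chr19:42272461-42276742, minus strand), which binds Wnt ligands and is known from foregut endoderm, ranked second for H3K27me3. It held 3525, 4400 and 4875 bp in control and 1575, 4325 and 4025 bp with 4-OHT. The value was lower with 4-OHT in each same-numbered pair but the conditions overlapped. The difference was -958 bp (exact permutation p = 0.40), and after scaling it was 99.6 bp, in the opposite direction. No FLAG region and no H3K27ac region lay in its 5 kb window in any list. Its H3K27ac within 50 kb was 750 and 975 bp in control and 1000 and 1175 bp with 4-OHT, and the region called in both control lists lay 31.4 kb downstream, at an annotated TSS of the gene *Zfyve27*.

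*Wif1* (chr10:120471016-120537706, plus strand), which binds Wnt ligands outside the Frizzled-like family, held 2000, 1550 and 950 bp of H3K27me3 in control and 1325, 525 and 550 bp with 4-OHT. *Dkk2* (chr3:131748256-131843257, plus strand), a ligand of the Lrp5 and Lrp6 co-receptors, held 1175, 2050 and 1800 bp in control and 525, 2175 and 750 bp with 4-OHT. At both genes the conditions overlapped, with exact permutation p = 0.20 for *Wif1* and p = 0.40 for *Dkk2*. *Frzb* (chr2:80252127-80287782, minus strand) had 50, 925 and 1025 bp in control and 375, 450 and 750 bp with 4-OHT, which began 1107 bp or more downstream of its TSS in every list. *Dkk1* (chr19:30620353-30624155, minus strand) had 0, 100 and 400 bp in control and 475, 325 and 250 bp with 4-OHT. *Sfrp4* (chr13:19714973-19724863, plus strand) had 350, 0 and 375 bp in control and 0, 300 and 0 bp with 4-OHT, and *Sfrp2* (chr3:83570243-83578238, plus strand) had 25 bp in control replicate 1 and 0 in the other 5 lists. None of these 4 genes separated the conditions.

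By count, 1 of 8 antagonists (*Sfrp1*) had less H3K27me3 in every 4-OHT list than in every control list, against 12.0% of the 4182 genes with the mark in any list, and 0 had more, against 0.191%. Over the 5 antagonists with the mark in all control lists, the ratio of 4-OHT to control ran from 0.533 to 0.788 with a median of 0.687, close to the median of 0.702 over 2629 genes. For cell type markers with the mark in all control lists the median ratio was 1.12 over 6 mesoderm, 0.913 over 5 neural and 0.826 over 4 endoderm markers, and 0.464 at 1 pluripotency marker. Their part in the antagonists' values was not tested. Same-numbered H3K27me3 lists deviated together, and counted by pairs 3 of 8 antagonists (*Sfrp1*, *Sfrp5* and *Wif1*) were lower in every pair, against 43.9% of genes (p = 0.250 in an exact sign-flip permutation test for each, the smallest that 3 pairs allow). Limma called 0 antagonists with or without the replicate block, and 0 and 1 of 4182 genes without and with it, with 299 and 1035 at an unadjusted p under 0.05. The share of lower among all genes called in either direction was 98.4% as listed and 54.0% after scaling by list total, where 0 antagonists were lower (5.76% of genes) and 0 higher (4.90%). The count of lower antagonists was 3 without control replicate 1, and 2 without control replicate 2, control replicate 3, 4-OHT replicate 1 or 4-OHT replicate 2, and *Sfrp1* was among them each time. *Dkk1* was higher without control replicate 3. Leaving out a list can only add to such calls, and the share of all genes called was not computed with a list left out.

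Suz12 was listed at the antagonists with the most H3K27me3. The *Sfrp1* window held 2025 and 2325 bp in control against 2475 and 3100 bp with 4-OHT. The *Sfrp5* window held 1325 and 1300 bp against 1475 and 1375 bp. These bases lay wholly inside the union of the 3 H3K27me3 lists of the same condition, but not inside each list. The replicate 1 lists left gaps over the *Sfrp1* TSS, from -224 to 1152 bp in control and from -224 to 1202 bp with 4-OHT, and over the *Sfrp5* TSS, where Suz12 of the same condition was listed. *Dkk2* had no Suz12 in control and 150 and 800 bp with 4-OHT, of which H3K27me3 of any 4-OHT list covered 525 of the 800 bp listed in either replicate. *Frzb* had 25 bp in 4-OHT replicate 1 alone, and *Sfrp2*, *Sfrp4*, *Dkk1* and *Wif1* had none in any list.

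By count, 3 of the 4 antagonists with Suz12 in any list were higher in both 4-OHT lists than in both control lists, against 32.0% of 2273 genes, and 0 were lower, against 5.76%. For each of the 3, p was 0.333 in the exact permutation test, the smallest that 2 against 2 allow. By pairs the same 3 were higher in both, against 39.7% of genes. The adjusted p by limma was 0.564 for *Sfrp1* (difference 612 bp, SE 320 bp), and limma called 0 of 2273 genes, with 272 at an unadjusted p under 0.05. After scaling by list total *Sfrp1* (2213 and 2297 against 2786 and 2618 bp) and *Dkk2* (0 and 0 against 169 and 676 bp) still separated, whereas *Sfrp5* overlapped (30.6% of genes higher), and lower calls made up 30.3% of all calls instead of 15.3%. At *Sfrp1* Suz12 covered more bases with 4-OHT and H3K27me3 fewer, as listed.

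H3K27ac was listed in both conditions at the promoters of *Frzb* and *Dkk1*, and next to the *Epdr1* TSS upstream of *Sfrp4*. *Frzb* had 875 and 1925 bp in control and 1050 and 1800 bp with 4-OHT. *Dkk1*, which blocks the Lrp5 and Lrp6 co-receptors, had 1125 and 2500 bp in control and 750 and 2175 bp with 4-OHT. Replicate 2 was wider than replicate 1 at both genes in both conditions, and the conditions overlapped (exact permutation p = 1.00 for *Frzb* and 0.667 for *Dkk1*). The window of *Sfrp4* held 725 and 775 bp in control and 775 and 650 bp with 4-OHT, and *Sfrp2* had 75 bp in 4-OHT replicate 1 alone. Of these 4 genes, 0 were lower in both 4-OHT lists, against 12.5% of 11973 genes, and 0 were higher, against 39.7%. By pairs 1 of 4 (*Dkk1*) was lower in both, against 15.8%. Limma called 0 of 11973 genes, with 2325 at an unadjusted p under 0.05. Single lists decided these counts: *Frzb* and *Dkk1* were lower without control replicate 1, *Sfrp4* without 4-OHT replicate 1 and *Dkk1* without 4-OHT replicate 2, and *Frzb* was higher without control replicate 2 and *Sfrp2* without 4-OHT replicate 2. Here too the share of all genes called was not computed with a list left out.

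Brg1 was listed at the same 2 promoters. A merged FLAG region in at least 2 of the 3 lists, here called Brg1-bound, lay in the window of *Frzb* and *Dkk1*, against 2.11% of all genes. At *Frzb* there were 2 such regions, from -1393 to -919 bp and from -668 to -244 bp, and FLAG covered 525, 750 and 0 bp in replicates 1, 2 and 3. At *Dkk1* there was 1, from -1120 to -946 bp, with 275, 175 and 0 bp in the window. All 3 regions overlapped H3K27ac of at least 1 control list and none overlapped control H3K27me3. Without FLAG replicate 1 or replicate 2 the count of bound antagonists was 0, since replicate 3 had no region in any of the windows.

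FLAG regions of a single list lay in the windows of *Sfrp1*, with 175, 325 and 0 bp at 3 different places that overlapped H3K27me3 of at least 1 control list, and of *Sfrp2*, with 25, 100 and 0 bp. *Sfrp4*, *Sfrp5*, *Dkk2* and *Wif1* had 0 bp in each of the 3 lists. Further out, Brg1-bound regions lay at -23.5 and -12.6 kb of *Sfrp1*, outside control H3K27ac and H3K27me3, and at 48.3 kb downstream of the *Frzb* TSS, overlapping control H3K27ac. Around 34.7 kb downstream of the *Frzb* TSS, near the 3' end of the gene, FLAG replicate 3 alone listed a region of 900 bp, where the median of its 192 regions was 75 bp and 4 were at least 900 bp wide. That region lay within an H3K27ac region listed in all 4 H3K27ac lists (1075 and 1050 bp in control, 1075 and 925 bp with 4-OHT).

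The bases that FLAG replicates 1 and 2 both listed at *Frzb*, *Dkk1* and *Sfrp1* are given to show the bound positions, on the plus strand of mm9. They are the 2 *Frzb* promoter positions (chr2:80288876-80289050 and chr2:80288201-80288250), the *Frzb* downstream position (chr2:80239376-80239500, within the processed transcript Gm13752), the *Dkk1* promoter position (chr19:30625201-30625225) and the 2 *Sfrp1* upstream positions (chr8:24498401-24498575 and chr8:24509301-24509325); apart from Gm13752 no annotated gene overlapped them. No match to the T-box, GATA, Fox or TCF/LEF letters, which are spelled out with the acetylated regions, was found in them on either strand, so none is in capitals. The stretches are only 25 to 175 bp long, and no share was computed for that length, so nothing is read from the absence.
Frzb -1268 to -1094: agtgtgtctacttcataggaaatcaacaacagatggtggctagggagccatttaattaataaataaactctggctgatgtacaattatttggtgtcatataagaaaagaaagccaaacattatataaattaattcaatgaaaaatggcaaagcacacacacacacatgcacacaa
Frzb -468 to -419: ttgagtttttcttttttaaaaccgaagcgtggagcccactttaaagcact
Frzb 48282 to 48406: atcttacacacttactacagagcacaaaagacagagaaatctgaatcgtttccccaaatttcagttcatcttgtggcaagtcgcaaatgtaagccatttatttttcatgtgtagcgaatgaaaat
Dkk1 -1070 to -1046: taagaaacaacatggacataagaat
Sfrp1 -23573 to -23399: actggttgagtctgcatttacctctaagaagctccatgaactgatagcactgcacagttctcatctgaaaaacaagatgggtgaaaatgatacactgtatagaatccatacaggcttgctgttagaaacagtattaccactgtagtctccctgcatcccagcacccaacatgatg
Sfrp1 -12673 to -12649: ctggcatcagctctcctctgtcccc

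**Figure D4:**
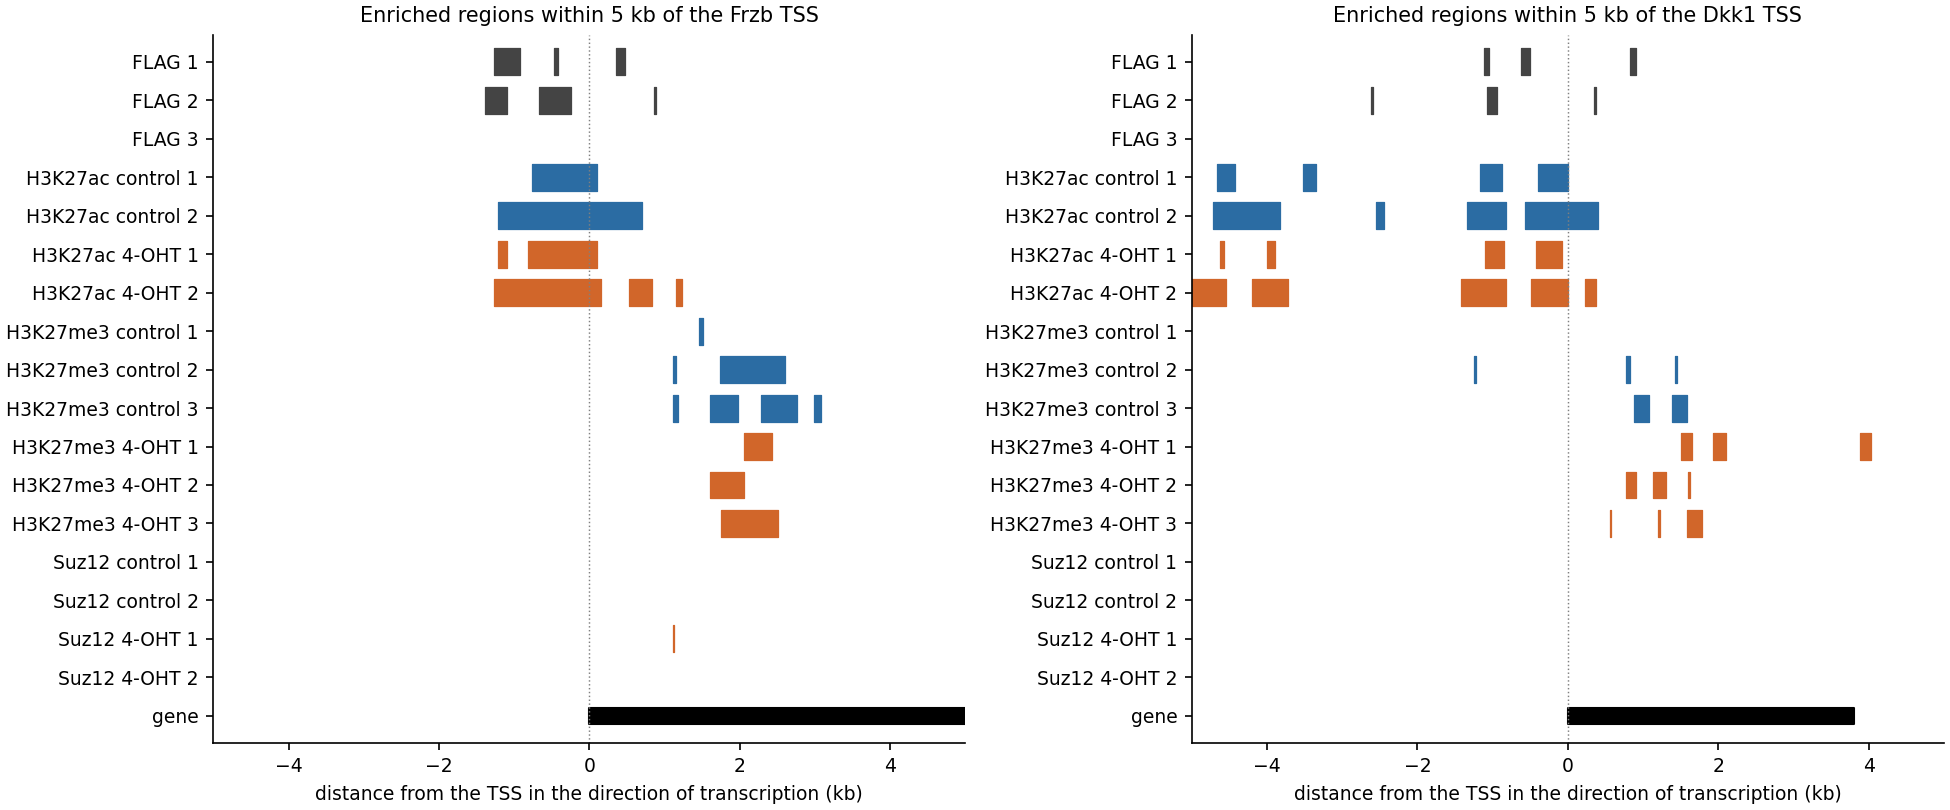
Enriched regions (boxes) of each of the 17 lists (rows) within 5 kb of the TSS of *Frzb* (left) and *Dkk1* (right), by distance from the TSS in kb (x axis, transcription to the right); grey is FLAG, blue control, orange 4-OHT and black the gene. FLAG replicates 1 and 2 and H3K27ac meet upstream of both TSSs, and H3K27me3 lies mostly downstream, inside the genes.

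Several distal H3K27ac regions around the antagonists were listed in control only. Within 50 kb of the 8 TSSs, 15 regions were called in both control lists, 10 of them distal and 5 at promoters. Distal regions had the nearest edge more than 2.5 kb from any annotated TSS, of protein-coding or other genes. Neither 4-OHT list held 5 of the 10 distal regions, against 33.1% of 13914 distal regions genome-wide, whereas 0 of the 5 promoter regions were missing, against 6.04% of promoter regions. The 5 missing regions belonged to *Sfrp1*, *Dkk1* and *Wif1*. Regions are not replicates, so no test was made of these counts. Without control replicate 1, that is among regions of control replicate 2 alone, 10 regions were missing, distal and promoter regions together. No genome-wide share was computed for regions of 1 control list, so this count has nothing to be read against.

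At *Sfrp1*, whose promoter had no H3K27ac, acetylated regions lay in and beyond the 3' part of the gene. The intronic region at 23.9 kb held 275 and 425 bp in control and the region at 40.8 kb, beyond the gene end, held 125 and 300 bp, and both had 0 bp in each 4-OHT list. A further intronic region at 31.9 kb held 725 and 1375 bp in control and 50 and 600 bp with 4-OHT, and one at -50.6 kb held 675 and 1325 bp against 225 and 500 bp. At each of these 4 regions, either 4-OHT list held fewer bases than either control list. The regions were selected for being listed in both control lists, which favors lower values with 4-OHT. The share of distal regions genome-wide that were lower in this way was not computed, so nothing is read from the 4. The region at -50.6 kb ran from -51248 to -49924 bp, mostly outside the 50 kb window. The sum within 50 kb of the *Sfrp1* TSS was 1125 and 2377 bp in control and 50 and 600 bp with 4-OHT, a ratio of means of 0.186 (exact permutation p = 0.333).

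At *Wif1* the only H3K27ac within 50 kb was a region at -17.1 kb with 400 and 800 bp in control and 0 bp in both 4-OHT lists. At *Dkk1*, neighboring regions at 43.0 and 44.3 kb downstream held 475 and 700 bp and 250 and 475 bp in control and 0 bp in both 4-OHT lists, whereas the distal region at -4.27 kb held 250 and 900 bp in control and 150 and 550 bp with 4-OHT. The distal regions of *Frzb* at 34.6 and 48.6 kb were listed in both conditions, the second with 725 and 850 bp in control and 200 and 825 bp with 4-OHT. None of the 5 missing regions overlapped a FLAG region of any list, and of all 10 distal regions only 2 did. The share of distal regions genome-wide that overlap a FLAG region was not computed. Over the 50 kb windows 2 of 8 antagonists (*Sfrp1* and *Wif1*) were lower in H3K27ac, against 20.0% of 17138 genes, and 1 (*Sfrp5*) was higher, against 39.7%. All H3K27ac in the *Sfrp5* window with 4-OHT lay at the TSS of the neighbor *Zfyve27*. By pairs 5 of 8 (*Sfrp1*, *Sfrp4*, *Frzb*, *Dkk1* and *Wif1*) were lower in both, against 23.8%, and 1 (*Sfrp5*) was higher, against 50.4%, with an exact sign-flip permutation p of 0.500 for each, the smallest that 2 pairs allow. The differences of the 5 were -1426 bp at *Sfrp1*, -1312 bp at *Dkk1*, -600 bp at *Wif1*, -188 bp at *Frzb* and -75.0 bp at *Sfrp4*. In every list the H3K27ac in the *Sfrp4* window lay nearest to the *Epdr1* TSS.

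Markers of cell types also differed between the conditions in H3K27ac within 5 kb of the TSS. Of the mesoderm markers with the mark in any list, 3 of 7 were lower (*T*, *Mesp1* and *Evx1*) and 1 was higher (*Fgf8*), against the 12.5% and 39.7% of all genes. The sum over the 8 mesoderm markers was 29436 and 39885 bp in control and 24260 and 31485 bp with 4-OHT, and the conditions overlapped. It was 3503 and 6778 bp against 1658 and 3158 bp over 5 endoderm markers. Of the 2 with the mark in any list 1 was lower, against 12.5%, and 0 were higher, against 39.7%. The lower one, *Cxcr4*, was at 0 in both 4-OHT lists. Over 4 cardiac markers it was 1050 and 1925 bp against 0 and 0 bp. Of the 3 with the mark in any list 1 was lower, against 12.5%, and 0 were higher, against 39.7%. The lower one, *Tnnt2*, had 1050 and 1450 bp in control, all the bases of control replicate 1, and *Myh6* was at 0 in every list. Over 6 pluripotency markers it was 11694 and 11119 bp against 11994 and 11719 bp. Of the 4 with the mark in any list 1 (*Nanog*) was lower, against 12.5%, and 1 (*Klf4*) was higher, against 39.7%. *Esrrb* and *Dppa3* were at 0 in every list. Over 5 neural markers the sum was 0 and 0 bp against 550 and 350 bp, all of it at *Neurod1*. This gene, the only 1 with the mark in any list, was higher, against 39.7% of all genes. These markers were named after their values were seen, and the part of such differences in the antagonists' values was not tested.

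**Figure D5:**
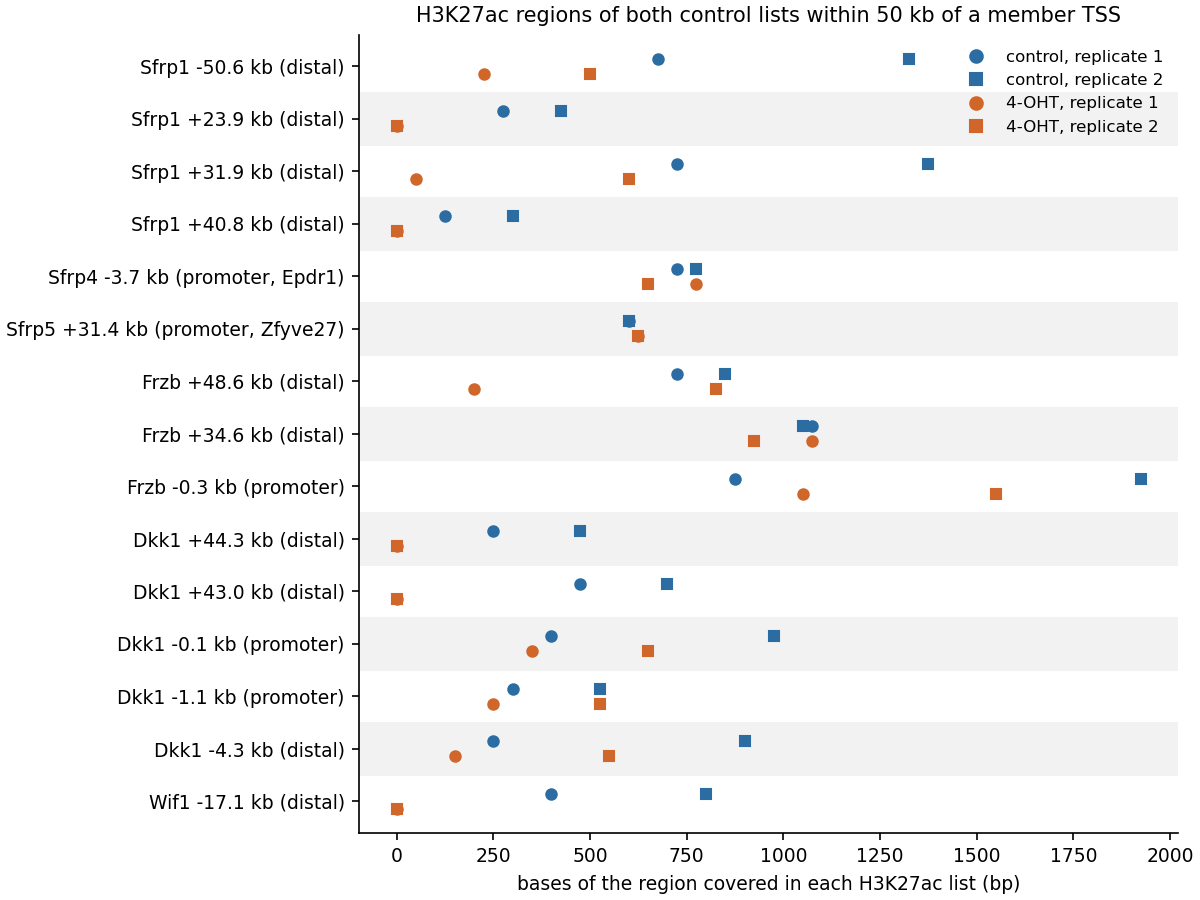
Bases covered in each H3K27ac list (x axis, bp) for the 15 regions called in both control lists within 50 kb of an antagonist TSS (rows, with the distance of the region's centre from the TSS). Blue is control and orange 4-OHT, circles are replicate 1 and squares replicate 2; both 4-OHT lists are at 0 for 5 distal regions of *Sfrp1*, *Dkk1* and *Wif1*.

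The control-listed bases of these 5 regions are shown because they are the acetylated elements that no 4-OHT list held, on the plus strand of mm9 and, for *Wif1* and the nearer *Dkk1* region, as the central 300 bp. They lie at chr8:24545776-24546050 (in an intron of *Sfrp1*), chr8:24562726-24562850, chr19:30580888-30581187, chr19:30579651-30579900 and chr10:120453901-120454200, the last 4 outside any annotated gene. Capitals mark the GATA letters AGATAAG, found in the second *Sfrp1* region and in the *Wif1* region. Those letters, on either strand, occurred in 5.32% of the central 300 bp of 13914 distal control regions. The T-box letters AGGTGTGA occurred in 1.70% and had no match in the 5 stretches. The Fox letters TGTTTAC occurred in 4.40% and had none either. The TCF/LEF letters CTTTGAT occurred in 5.54%, also without a match in the 5 stretches.
Sfrp1 23802 to 24076: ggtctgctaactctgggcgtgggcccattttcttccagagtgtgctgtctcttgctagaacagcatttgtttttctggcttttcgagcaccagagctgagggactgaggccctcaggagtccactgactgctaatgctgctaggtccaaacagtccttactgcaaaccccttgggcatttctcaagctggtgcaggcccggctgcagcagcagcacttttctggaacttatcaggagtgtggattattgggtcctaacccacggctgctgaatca
Sfrp1 40752 to 40876: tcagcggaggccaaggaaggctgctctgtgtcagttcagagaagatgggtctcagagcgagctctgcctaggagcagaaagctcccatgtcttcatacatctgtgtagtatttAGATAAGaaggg
Dkk1 42968 to 43267: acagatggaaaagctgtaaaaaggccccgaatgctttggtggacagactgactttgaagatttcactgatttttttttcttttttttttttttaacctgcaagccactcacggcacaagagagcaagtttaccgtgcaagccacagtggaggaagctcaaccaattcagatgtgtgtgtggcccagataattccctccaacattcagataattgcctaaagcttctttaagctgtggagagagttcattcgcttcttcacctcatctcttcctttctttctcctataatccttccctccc
Dkk1 44255 to 44504: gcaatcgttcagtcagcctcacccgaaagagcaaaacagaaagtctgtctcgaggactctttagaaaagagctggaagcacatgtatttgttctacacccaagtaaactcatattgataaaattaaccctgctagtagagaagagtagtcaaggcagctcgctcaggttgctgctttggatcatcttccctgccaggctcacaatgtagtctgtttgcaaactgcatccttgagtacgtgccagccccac
Wif1 -17115 to -16816: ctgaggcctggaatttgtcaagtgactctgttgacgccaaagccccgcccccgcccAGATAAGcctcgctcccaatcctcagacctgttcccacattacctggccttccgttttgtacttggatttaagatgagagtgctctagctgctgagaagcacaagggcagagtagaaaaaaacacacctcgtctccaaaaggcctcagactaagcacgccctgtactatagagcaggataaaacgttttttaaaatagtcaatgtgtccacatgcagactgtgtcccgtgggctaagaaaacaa

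Other genes of the pathway were read from fixed lists. Of 14 other Wnt antagonists found in the annotation, 4 had H3K27me3 in all control lists, against 11.8% of all genes. The most was at *Notum*, a secreted enzyme that inactivates Wnt ligands, with 3312, 5300 and 4950 bp in control and 1875, 3700 and 3775 bp with 4-OHT. Of the 8 with the mark in any list 0 were lower and 0 higher, against the 12.0% and 0.191% of all genes given above. By H3K27ac 3 of 8 were lower (*Cer1*, *Apcdd1* and *Igfbp4*), against 12.5%, and 3 were higher (*Dkkl1*, *Kremen1* and *Tpbg*), against 39.7%. By Suz12 0 of 4 were lower, against 5.76%, and 1 (*Sost*) was higher, against 32.0%. Genes named here for such a call, in this and the other lists, were chosen after their values were seen. *Cer1*, an inhibitor of Nodal, BMP and Wnt, had 1300 and 1850 bp in control and 0 and 325 bp with 4-OHT.

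Of 19 Wnt ligand genes, 15 had H3K27me3 in all control lists, against 11.8% of all genes, and 13 had Suz12 in both, against 6.03%. The most H3K27me3 was at *Wnt10a*, with 5336, 9426 and 8901 bp in control and 3061, 7201 and 7061 bp with 4-OHT, which overlapped. Of 17 ligand genes with the mark in any list 1 (*Wnt9b*) was lower, against 12.0%, and 0 were higher, against 0.191%. Of 8 with H3K27ac 3 (*Wnt2*, *Wnt2b* and *Wnt3*) were lower, against 12.5%, and 0 were higher, against 39.7%. Of 15 with Suz12 2 (*Wnt7b* and *Wnt10b*) were lower, against 5.76%, and 6 were higher, against 32.0%. Of 15 receptor and co-receptor genes, 13 had H3K27ac in both control lists, against 47.8% of all genes, and 4 were Brg1-bound, against 2.11%. *Fzd8*, a Wnt receptor, was the 1 of 8 with lower H3K27me3, against 12.0%, at 850, 2650 and 1700 bp in control and 0, 700 and 300 bp with 4-OHT, and 0 were higher, against 0.191%. By H3K27ac 2 of 13 receptors were lower, against 12.5%, and 1 was higher, against 39.7%, and by Suz12 0 of 7 were lower, against 5.76%, and 3 were higher, against 32.0%. The median ratio of 4-OHT to control H3K27me3 was 0.730 over 4 other antagonists, 0.748 over 15 ligands and 0.731 over 4 receptors with the mark in all control lists.

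The genes with covered bases most like those of *Sfrp1* over the 17 lists were *Gad2*, *Ikzf3* and *Gbx1*, with mean absolute differences of 301, 312 and 339 bp per list. For *Sfrp5* they were *Nkx6-3*, *Spnb3* and *Htra4* (139, 157 and 178 bp). For *Frzb* they were *Pate2*, *Zeb2* and *N4bp2* (246, 249 and 251 bp) and for *Dkk1* *Lpar4*, *Lrp4* and *Cma2* (163, 182 and 190 bp). The other 4 antagonists had bases in fewer than 10 lists and were not compared.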

How the data were processed

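ChIP-seq of day 4 cultures was read from 17 deposited lists of enriched regions; the 11 input samples were not used. Per the submitters' processing notes reads were aligned with Bowtie to mm9. The authors called regions replicate by replicate against input under a Poissonian background, requiring 1e-06 and at least 2-fold enrichment for FLAG and 1e-12 for the other marks. The deposited lists hold positions only, so signal per region and depth are unknown, and covered bases depend on the threshold and on list size. Edges are multiples of 25 bp. Region ends lay within the mm9 chromosome lengths, and GENCODE genes of that build were used (1 record per symbol, TSS at the 5' end).

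Covered bases were computed within 5 kb and 50 kb of each TSS and in the gene body. A gene was lower or higher where every 4-OHT list lay beyond every control list. Single values were tested by two-sided exact permutation, and all windows with the mark by limma 3.58.1 (R 4.3.3, trend). Regions of replicates were merged where they shared at least 1 bp. The calculations were tested on simulated data. P-values measure only the spread between these samples. The 3 H3K27me3 replicate numbers pair the samples, as read from the lists: deviations of same-numbered lists from their condition means correlated at 0.907, 0.818 and 0.761 over 4182 windows. Named genes were the 8 members, neighbors nearer to a region, up to 3 genes of each pathway list with the most control H3K27me3, and for each member with bases in at least 10 lists the 3 genes of lowest mean absolute difference. Some of the other pathway genes and cell type markers whose conditions did not overlap, and some markers at 0, are also named. They were chosen after their values were seen, and others that met the same criteria are not named. Markers were to be read in control only, and their 4-OHT values were added. The members and lists were chosen with earlier results of these data known. Alternatives were other windows, all annotated TSSs, scaling, equal numbers of the widest regions, joined regions, stricter overlaps, the replicate block, and each replicate left out. Covered bases and exact tests used NumPy 2.4.6 and SciPy 1.17.1 under Python 3.11.15, and plots Matplotlib 3.10.9.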

Additional observations from a re-analysis of the deposited data

How the results depend on the processing

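Region lists without scores limit every value, since a change in threshold, depth or list size moves covered bases in the same way as a change in the mark, and no exact test of 2 or 3 replicates per condition can pass 0.05. The count of antagonists lower in H3K27me3 (1 as reported) was 0 within 2.5 kb, 0 after scaling by list total, 0 after scaling between 2.5 and 5 kb (an interval added after seeing the data), 0 by limma with or without the replicate block and 3 by the paired replicate block, and 1 to 3 with a replicate left out. The count higher (0) was 1 (*Dkk1*) with regions joined under 1 kb, and 0 to 1 with a replicate left out. For H3K27ac the count lower (0) was 1 (*Dkk1*) by the replicate block and 0 to 2 with a replicate left out, and the count higher (0) was 0 to 1. For Suz12 the count higher (3) was 0 by limma with or without the replicate block, and 3 to 4 with a replicate left out. H3K27ac and Suz12 have 2 pairs each, whose lists share only a number; their deviations correlated at 0.441 and 0.506. The count of Brg1-bound antagonists (2) was 4 with a region in any replicate and 0 to 2 with a replicate left out. The count of missing H3K27ac regions (5) was 5 to 10 with a replicate left out. Shares over all genes or regions were not computed with a replicate left out.

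Differences (4-OHT minus control) that changed sign were those of H3K27me3 at *Sfrp5* after scaling (99.6 bp, and 64.0 bp from 2.5 to 5 kb), at *Frzb* within 2.5 kb (10.3 bp) and after scaling (99.9 bp), and at *Dkk1* within 10 kb (-250 bp), and of H3K27ac at *Sfrp4* after scaling (13.9 bp). With a replicate left out the difference ran from -450 to 37.5 bp for H3K27me3 at *Frzb*, and for H3K27ac from -100 to 25 bp at *Sfrp4*, from -500 to 550 bp at *Frzb* and from -1062 to 362 bp at *Dkk1*. The cause was not tested. The other 224 alternative values of single genes did not take the opposite sign, but not all of them could. The replicate block and limma, with or without that block, repeat the main difference, as at *Sfrp1* (-2383 bp for H3K27me3 in each). Values without any difference between the conditions were also counted among the 224. The count therefore does not measure how stable the signs were.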
